A study of Mus musculus with 52 samples.

Results

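The Fc gamma receptors bind the constant part of immunoglobulin G (IgG), and they are described here through 6 of the 57010 genes in the deposited table: Fcgr1, Fcgr3, Fcgr4, Fcer1g, Fcgr2b and Fcgrt. The members were found in the table by their gene symbol. Fcgr1, Fcgr3 and Fcgr4 encode the activating receptors of the mouse, which signal to the kinase Syk through a shared chain, the product of Fcer1g. Fcgr2b encodes the inhibitory receptor of the family, which recruits the lipid phosphatase encoded by Inpp5d. Fcgrt encodes the heavy chain of the neonatal Fc receptor, which takes up IgG inside cells and returns it to the surface in place of degrading it. Macrophages and monocytes carry several of these receptors at once, mouse neutrophils carry mainly activating ones, and mouse B cells carry the inhibitory one. Antibodies that activate CD40 are known to depend to differing degrees on cross-linking by Fc receptors, the inhibitory receptor above all.

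Every animal was an hCD40tg mouse, a strain that carries human CD40 as a transgene, and every animal bore a MC38-CEACAM5 tumor, grown from a mouse colon carcinoma line that carries the antigen CEACAM5. The animals received ATOR-4066, a bispecific antibody that binds both CD40 and CEACAM5, or CD40 mAb, a monoclonal antibody against CD40 alone, or vehicle. The promoter that drives the transgene, the doses, the times and the ages were not given in the sources used here. RNA sequencing was done on 4 materials. The sorted cells were CD45+Ly6G- cells taken from tumors (leukocytes without neutrophils), with 3 ATOR-4066, 3 CD40 mAb and 4 vehicle libraries. Whole tumors had 4 ATOR-4066, 5 CD40 mAb and 4 vehicle libraries. Blood had 4 ATOR-4066, 5 CD40 mAb and 5 vehicle libraries, and lymph nodes had 5 ATOR-4066, 4 CD40 mAb and 4 vehicle libraries. Blood, lymph node and tumor of the same number within a treatment came from the same animal, and the sorted cells carried other animal numbers.

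The motifs that set the activating chain apart from the inhibitory receptor are short, and they are shown because the rest of the account turns on that division. The sequences below are coding strand, 5′ to 3′, from GENCODE vM21 transcripts on GRCm38, and the capitals mark the codons of the signalling tyrosines. The Fcgr2b stretch lies on the minus strand at chr1:170961071-170961088 and encodes residues 317 to 322, the core of its inhibitory motif (ITIM). The Fcer1g stretch lies on the minus strand at chr1:171229889-171230072, spans an intron, and encodes residues 65 to 79 of the activation motif (ITAM).
Fcgr2b ITIM: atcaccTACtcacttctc
Fcer1g ITAM: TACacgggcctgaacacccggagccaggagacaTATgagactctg

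Fcgr2b and Fcgr3 share a stretch of coding sequence that is nearly identical, and it is shown because reads from it can be given to either gene. It covers 189 bases in each gene and spans an intron in both, at chr1:170966644-170968111 in Fcgr2b and chr1:171054137-171057822 in Fcgr3, both on the minus strand. The capitals mark the 5 bases that differ between the genes, and 129 bases in a row are the same in both.
Fcgr2b: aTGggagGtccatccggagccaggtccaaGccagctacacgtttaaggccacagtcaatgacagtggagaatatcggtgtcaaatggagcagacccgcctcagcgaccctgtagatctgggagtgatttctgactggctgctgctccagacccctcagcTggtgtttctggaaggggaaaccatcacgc
Fcgr3: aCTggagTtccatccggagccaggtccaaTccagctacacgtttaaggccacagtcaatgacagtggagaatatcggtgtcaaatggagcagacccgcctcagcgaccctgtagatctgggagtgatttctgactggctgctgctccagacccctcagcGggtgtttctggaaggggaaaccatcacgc

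Over their aligned coding sequences Fcgr2b and Fcgr3 were identical at 658 of 784 positions (83.9%), against 58.6% to 63.5% for the other pairs of receptors compared. Windows of 31 bases found in both transcripts made up 6.42% of the 3632 windows of Fcgr2b and 14.3% of the 1627 windows of Fcgr3, and no other pair of members shared one. The deposited estimates showed the sharing: the Fcgr2b value held a fraction of a count in 44 of 52 libraries and the Fcgr3 value in 45, and in 42 of those 44 libraries the sum of both was whole to within 0.01. Fcgr1 and Fcgr4 held no fraction in any library. Levels of Fcgr2b and Fcgr3 are therefore less certain than those of Fcgr1 and Fcgr4.

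Fcgr1 (ENSMUSG00000015947) lies at chr3:96282909-96293969 on the minus strand. The other receptors of the family form a cluster with Fcer1g on chromosome 1. It holds Fcgr2b (ENSMUSG00000026656) at chr1:170958617-170976547 (minus), Fcgr4 (ENSMUSG00000059089) at chr1:171018920-171029761 (plus), Fcgr3 (ENSMUSG00000059498) at chr1:171051174-171064935 (minus) and Fcer1g (ENSMUSG00000058715) at chr1:171229572-171234365 (minus). Fcgrt (ENSMUSG00000003420) lies apart from them at chr7:45092990-45103851 (minus). The antisense gene Gm38204 overlaps Fcgr2b and reached at most 13 counts in a library, and Gm45669 overlaps Fcgrt and reached at most 18. The lowest Fcgrt count was 9, in a blood library of a CD40 mAb animal, so Fcgrt in blood is the value with the least support.

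The promoters of the 3 activating receptors, taken from RefSeq on GRCm38.p6, each held the letters GAGGAA on the strand opposite to the gene, which is TTCCTC on its own strand and is marked by capitals. They are shown because all 3 genes held them, and their part in the levels given below was not tested. GAGGAA is the core that the myeloid factor PU.1 is known to bind. The Fcgr1 match starts 55 bases before the gene's start at chr3:96294010-96294033 (minus), the Fcgr4 match 22 bases before it at chr1:171018895-171018918 (plus), and the Fcgr3 match 15 bases before one of its RefSeq starts at chr1:171059395-171059418 (minus).
Fcgr1: gcaacttccTTCCTCttttctaat
Fcgr3: tccatttccTTCCTCtttttgtag
Fcgr4: gctatttacTTCCTCtcttctagt
In Fcgr2b, Fcer1g and Fcgrt the letters GAGGAA were not found on either strand of the window, and 28.3% of 32851 RefSeq promoters of this length held them on at least one strand. The Fcgr1 promoter also held TTCNNNGAA, a pattern bound by STAT factors, which was present in 8.3% of promoters.

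Library totals were 30.2 to 47.4 M counts (M for mega) in sorted cells, 47.4 to 64.2 M in tumors, 33.5 to 44.1 M in blood and 46.3 to 138.5 M in lymph nodes. In blood, haemoglobin genes took 78.1% to 88.2% of the counts in ATOR-4066 animals, 77.5% to 81.2% in CD40 mAb animals and 69.8% to 76% in vehicle animals, which left 4.1 to 11.6 M counts for all other genes. Both libraries not used in the comparisons stood apart from their groups. Lymph node vehicle 3 had 217 CPM (counts-per-million, here of the library total) of the leukocyte gene Ptprc, against 818 to 1073 in the other vehicle nodes, and its Fcgr4 level was 110 CPM, against 1.57 to 16.1. Tumor ATOR-4066 3 had 817 CPM of Ptprc, where the remaining ATOR-4066 tumors had 177 to 396, and its Fcgr4 level was 36.9 CPM, against 91.4 to 167. In sorted cells the summed neutrophil markers were 61.6 to 275 CPM. The gated-out gene Ly6g was at 0 in every CD40 mAb library, but not in every ATOR-4066 or vehicle library. These are bulk samples, so fewer cells of a type and less RNA per cell cannot be told apart in any value given below.

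After scaling across materials, the activating receptors and their chain in vehicle animals were on average highest in sorted tumor leukocytes and lowest in lymph nodes. On the scale shared by the 50 libraries, Fcgr1 had 466, 350, 488 and 360 CPM (from here on library sizes scaled by the TMM method) in sorted cells, against 80.5, 68.2, 72.2 and 68.3 in tumors, 6.04 to 15.9 in blood and 12, 4.16, 4.33 and 4.07 in lymph nodes. Every sorted library stood above every tumor library and every tumor library above every blood and node library. Fcgr4 had 156, 126, 243 and 193 CPM in sorted cells, 58.2, 58.1, 43 and 50.1 in tumors, 12.4 to 23 in blood and 7.73, 1.27, 1.35 and 0.741 in lymph nodes. The first vehicle node was the high one for Fcgr1 and Fcgr4 alike. Fcgr2b covered a narrower span, with 342, 272, 280 and 319 CPM in sorted cells, 101, 83.7, 62.2 and 75.4 in tumors, 57.3 to 63.9 in blood and 40.3, 35.2, 35.8 and 29 in lymph nodes. Fcgrt had 20.7 to 24.7 CPM in sorted cells, 24.4 to 32 in tumors, 11.7 to 16 in blood and 21.8 to 34.4 in lymph nodes, so that blood lay below every other material.

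**Figure D1:**
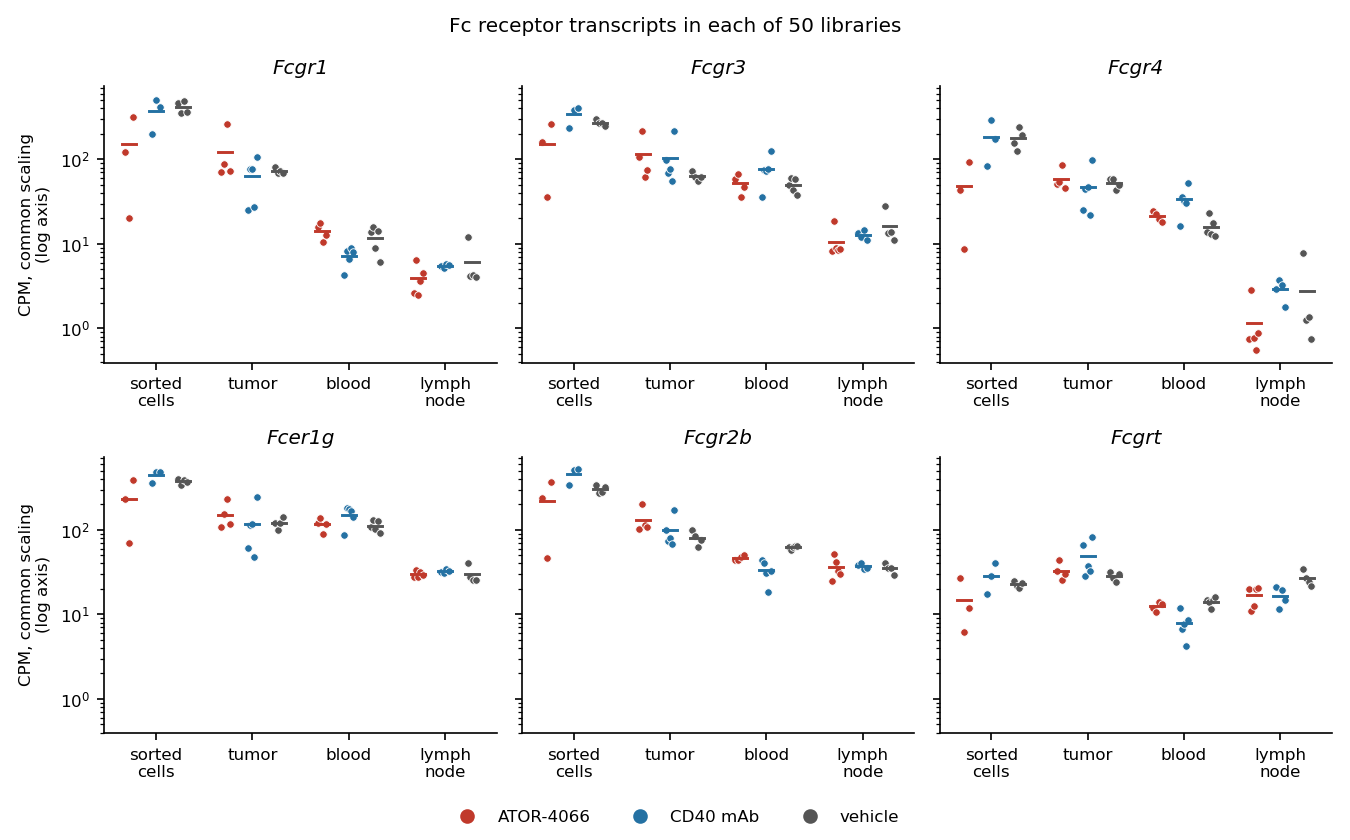
CPM of the 6 genes on the scale shared by all 50 libraries (log axis), 1 panel a gene, with 1 point a library grouped by material and treatment and a bar at each group's mean. Among vehicle libraries Fcgr4 reaches 243 CPM in sorted cells and lies as low as 0.741 CPM in a lymph node, while Fcgrt stays between 11.7 and 34.4 CPM.

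In vehicle animals 5 of the 6 genes were higher in sorted cells than in whole tumor (limma's moderated test on voom weights, with Benjamini-Hochberg adjustment over 21410 genes), where 57.8% of all genes passed at an adjusted p under 0.05. Fcgr1 was 2.51 ± 0.51 higher on the log2 scale (SE, adjusted p = 4.75e-05), Fcgr3 2.11 ± 0.46 (adjusted p = 0.000119), Fcgr2b 1.93 ± 0.35 (adjusted p = 1.05e-05), Fcgr4 1.74 ± 0.48 (adjusted p = 0.0021) and Fcer1g 1.64 ± 0.37 (adjusted p = 0.00019). Fcgrt did not pass, at -0.32 ± 0.33 (adjusted p = 0.425). The members' median difference was 1.84, beside -0.26 over all genes. In the same libraries all 8 monocyte markers and all 8 T cell markers were higher in sorted cells, while 3 of 10 macrophage markers were.

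Between tumor and lymph node 5 of the 6 genes were higher in tumors, in a comparison where 61.6% of all genes passed. Fcgr4 was 31-fold higher in tumors (log2 difference 4.95 ± 0.53, adjusted p = 1.27e-10) and Fcgr1 13.5-fold higher (3.76 ± 0.44, adjusted p = 1.46e-09). Fcgr3 and Fcer1g were both 2.03 higher on the log2 scale, with SEs of 0.37 and 0.30, and Fcgr2b was 1.19 ± 0.29 higher (adjusted p = 0.000441). Fcgrt differed by 0.11 ± 0.27 (adjusted p = 0.751). Of the macrophage markers 9 of 10 were higher in tumors, and all 8 B cell markers were lower.

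After scaling across materials, blood stood above lymph node for 4 of the 6 genes and below it for 1, where 63.1% of all genes passed. Fcgr4 was 9.25-fold higher in blood (log2 difference 3.21 ± 0.55, adjusted p = 3.19e-06), followed by Fcer1g at 1.92 ± 0.22, Fcgr3 at 1.68 ± 0.30 and Fcgr2b at 0.84 ± 0.22 (adjusted p = 0.00121). Fcgrt was lower in blood, at -0.88 ± 0.30 (adjusted p = 0.00935), a call that was lost without sample weights (adjusted p = 0.0664). Fcgr1 was 1.08 ± 0.52 higher without passing (adjusted p = 0.0674), and passed without lymph node vehicle 1 (1.43, adjusted p = 0.0154) or blood vehicle 5 (1.30, adjusted p = 0.0376). All 8 neutrophil markers were higher in blood than in lymph node. The order of blood and node depends on the scaling. Of each library's total, haemoglobin included, vehicle Fcgr2b was 15.6 to 23.4 CPM in blood against 61.6 to 83.9 in nodes. Fcer1g was 26.6 to 46.1 CPM against 54.3 to 85, and Fcgr3 11.3 to 21.3 against 23.8 to 57.7. Fcgr4 overlapped on that measure, at 3.46 to 6.46 CPM against 1.57 to 16.1.

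Levels per kilobase of merged exon allow the genes to be set roughly against each other within a material, on that material's own scaling. The merged exons of Fcgr2b hold 5790 bases, but its protein-coding transcripts only 3632 windows of 31 bases. These numbers lay closer for Fcgr1 (2589 and 2559), Fcgr3 (1736 and 1627) and Fcgr4 (1256 and 1226). The level of Fcgr2b per kilobase may therefore be too low, and its rank is uncertain. Fcer1g, which serves several receptors, led everywhere. In vehicle tumors it had 287 ± 37.8 CPM per kb, ahead of Fcgr4 at 86.7 ± 12.1, Fcgr3 at 75.9 ± 9.48 and Fcgr1 at 58.2 ± 5.23, with Fcgr2b at 29 ± 5.95 and Fcgrt at 28.1 ± 3.42 (SD, n = 4). The SDs of Fcgr4 and Fcgr3 overlapped, as did those of Fcgr2b and Fcgrt. In vehicle sorted cells Fcgr1, Fcgr3 and Fcgr4 lay within their spread of each other, at 298 ± 51, 291 ± 21.8 and 265 ± 75.9 CPM per kb, below Fcer1g at 794 ± 50.9 and above Fcgr2b at 97 ± 10.4 and Fcgrt at 20 ± 1.51 (SD, n = 4). In vehicle lymph nodes Fcer1g (71.9 ± 16.6) was followed by Fcgrt (26.7 ± 5.17), Fcgr3 (19.9 ± 8.85) and Fcgr2b (12.7 ± 1.6), where Fcgr3 overlapped with both of its neighbours. Fcgr1 (4.96 ± 3.1) and Fcgr4 (4.59 ± 5.44) came last in the nodes and did not differ beyond their spread. In vehicle blood the order was Fcer1g at 20.1 ± 2.82, Fcgr3 at 4.52 ± 0.848, Fcgr4 at 2 ± 0.544, Fcgr2b at 1.68 ± 0.076, Fcgrt at 1.06 ± 0.112 and Fcgr1 at 0.713 ± 0.245 CPM per kb (SD, n = 5). Fcgr4 and Fcgr2b overlapped there, as did Fcgrt and Fcgr1.

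Blood was the material in which treatment changed the receptors by test. After TMM scaling, the activating receptors Fcgr4 and Fcgr3 and the chain Fcer1g rose with CD40 mAb against vehicle. The inhibitory receptor Fcgr2b and the recycling receptor Fcgrt fell. The genes called were 5 of 6 members, in a comparison where 34.6% of all 12184 genes tested passed (edgeR's quasi-likelihood test, Benjamini-Hochberg adjustment). Of all genes 22.2% were higher and 12.4% were lower, against 3 and 2 of the 6 members. The rises depend on the scaling. Of each library's total, haemoglobin included, Fcer1g was 9.37 to 17.4 CPM with CD40 mAb, against 26.6 to 46.1 with vehicle. Fcgr3 was 4.3 to 12.2 CPM against 11.3 to 21.3, and Fcgr4 1.69 to 5.09 against 3.46 to 6.46. Fcgr2b was lower on that measure too, at 1.02 to 7.33 CPM against 15.6 to 23.4.

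Fcgr4, which binds IgG2a and IgG2b complexes on monocytes and neutrophils, had 2.71, 6.04, 5.41, 5.38 and 9.39 CPM in CD40 mAb blood, against 2.14, 3.6, 2.1, 2.75 and 1.96 CPM in vehicle blood (here and below on the scaling of the material itself). Animals 2 to 5 of the CD40 mAb group stood above every vehicle animal, and animal 1 lay among them. The mean was 5.78 ± 2.39 against 2.51 ± 0.683 (SD, n = 5 each), a log2 change of 1.19 ± 0.26 or 2.28-fold (SE, edgeR adjusted p = 0.00231). Fcgr3, the low-affinity activating receptor, had 6.05, 12.5, 12.1, 13.7 and 22.5 CPM with CD40 mAb, against 7.74, 9.51, 6.84, 9.1 and 6.03 with vehicle, a change of 0.76 ± 0.27 (edgeR adjusted p = 0.0392). Again animal 1 lay among the vehicle animals and the other four above them. The chain Fcer1g had 14.7, 30.2, 29.3, 29.9 and 25.2 CPM with CD40 mAb, against 16.9, 20.5, 16.1, 19.7 and 14.6 with vehicle, a change of 0.56 ± 0.19 (edgeR adjusted p = 0.0281), with the same 4 animals above every vehicle animal.

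Fcgr2b went the other way, with 7.48, 6.78, 5.13, 3.23 and 5.78 CPM in CD40 mAb blood, against 9.79, 8.96, 9.91, 9.96 and 10 CPM in vehicle blood. The groups did not overlap. The mean was 5.68 ± 1.64 against 9.73 ± 0.44 (SD, n = 5 each), and the change of -0.76 ± 0.15 on the log2 scale had the smallest adjusted p of the 6 genes (edgeR, 0.0014). Fcgrt had 2.01, 1.11, 1.27, 0.745 and 1.53 CPM with CD40 mAb, against 2.29, 2.2, 1.86, 2.28 and 2.51 with vehicle, a change of -0.68 ± 0.19 (edgeR adjusted p = 0.00984) that rests on 9 to 66 counts a library in the CD40 mAb group. Its 4 lowest CD40 mAb libraries lay below every vehicle library. Fcgr1, the high-affinity receptor, averaged 1.24 ± 0.333 CPM with CD40 mAb against 1.85 ± 0.634 with vehicle, and its change of -0.63 ± 0.27 did not pass (edgeR adjusted p = 0.0851).

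Markers of other cell types moved in the same libraries. All 8 neutrophil markers rose with CD40 mAb, and their summed level was 219, 504, 449, 758 and 1064 CPM, against 162, 229, 155, 206 and 110 CPM with vehicle. Of 8 B cell markers 7 fell, and their sum was 295, 142, 167, 112 and 125 CPM, against 302, 311, 330, 304 and 371 CPM with vehicle. CD40 mAb animal 1, whose Fcgr4, Fcgr3 and Fcgr2b levels lay closest to vehicle, had the lowest neutrophil sum and the highest B cell sum of its group. The monocyte sum overlapped between the groups (84.4 to 177 CPM with CD40 mAb, 119 to 185 with vehicle), with 1 of 8 markers higher and 2 lower. The platelet sum was 571, 1044, 941, 1160 and 492 CPM with CD40 mAb, against 308 to 436 CPM with vehicle, and 4 of 5 platelet markers rose. All 6 erythroid markers rose as well, with a sum of 847423 to 2661917 CPM, against 304462 to 471015 CPM with vehicle. In CD40 mAb blood the TMM-scaled library sizes were smaller than the library totals. The marker sums and calls are on the TMM scaling, on which the receptor rises above depend, and were not compared on library totals. Platelets are known to use the Fcer1g chain. The part of these cell types in the receptor changes was not tested. Without any single blood library in turn Fcgr4, Fcgr2b and Fcgrt still passed. Fcgr3 and Fcer1g both lost their call without vehicle animal 1, 3 or 5 or CD40 mAb animal 2, 3 or 4, and Fcgr3 also without CD40 mAb animal 5 (0.49, edgeR adjusted p = 0.124). Fcgr1 passed without vehicle animal 5 (-0.80, edgeR adjusted p = 0.0194).

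**Figure D2:**
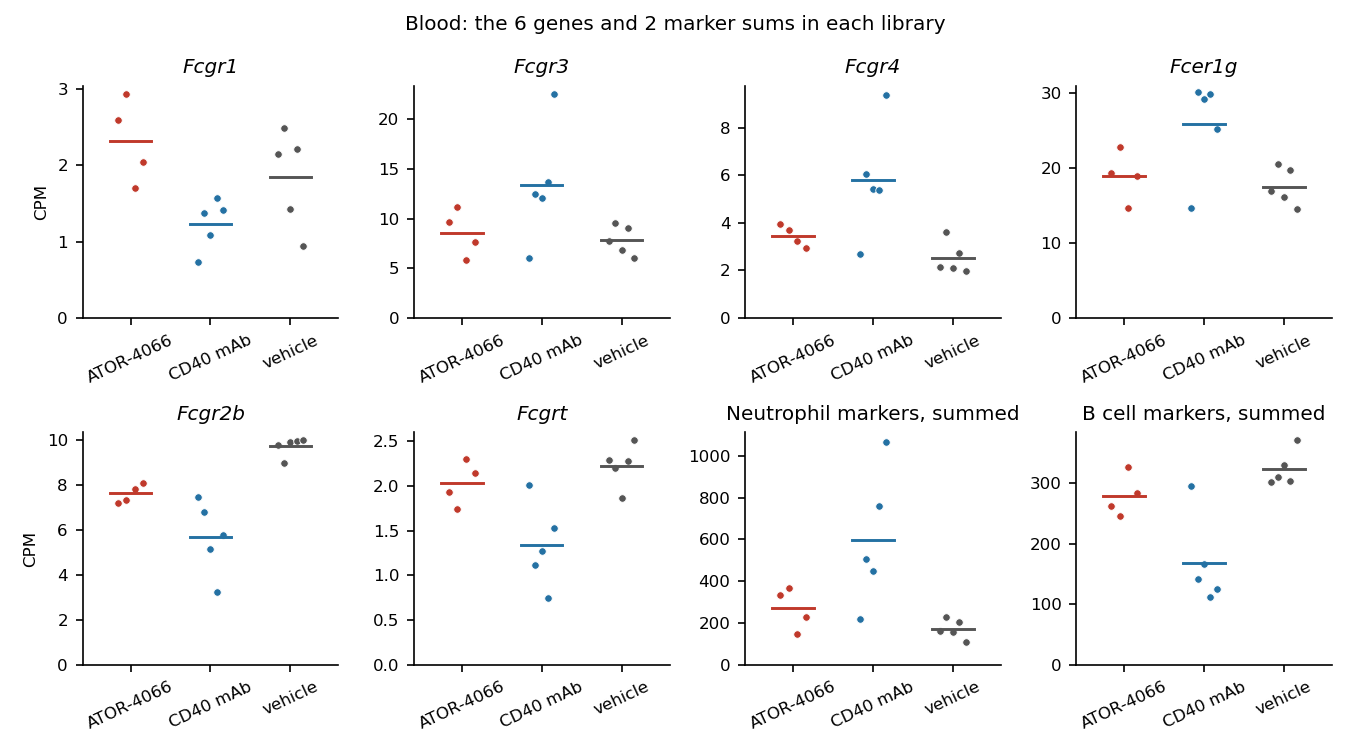
CPM in blood of the 6 genes and of the summed neutrophil and B cell markers, 1 point a library and a bar at each group's mean, with the groups in the order ATOR-4066, CD40 mAb and vehicle. Fcgr2b lies between 3.23 and 7.48 CPM in all 5 CD40 mAb animals and at 8.96 CPM or more in all 5 vehicle animals.

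ATOR-4066 changed none of the 6 genes in blood against vehicle by test (edgeR), where 0.435% of all genes passed. DESeq2 called 0 members beside 451 of all genes. At an unadjusted p under 0.05, 15% of all genes and 1 of the 6 members passed. That gene was Fcgr2b, with 7.21, 7.33, 7.84 and 8.11 CPM in ATOR-4066 blood, against 8.96 to 10 CPM in vehicle blood. The groups did not overlap, and the change was -0.35 ± 0.16 (edgeR adjusted p = 0.315). The neutrophil sum was 335, 365, 146 and 228 CPM in ATOR-4066 blood and the B cell sum 262, 245, 327 and 284 CPM, in the same animal order. Fcgr4 had 3.95, 3.71, 3.22 and 2.94 CPM with ATOR-4066, a change of 0.46 ± 0.27 (edgeR adjusted p = 0.437), and overlapped with vehicle. The other 4 genes changed by -0.13 to 0.31. These results also depend on the scaling. Of each library's total, haemoglobin included, Fcer1g was 14.1 to 22.6 CPM with ATOR-4066, against 26.6 to 46.1 with vehicle. Fcgr3 was 5.61 to 9.65 CPM against 11.3 to 21.3, and Fcgr2b 4.56 to 9.65 against 15.6 to 23.4. Fcgrt was 1.09 to 2.56 CPM against 3.07 to 5.35. Fcgr1 and Fcgr4 overlapped with vehicle on that measure.

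Between the antibodies, Fcgr1 was the member that passed in blood, where 13.1% of all genes passed and 2.31% were higher with ATOR-4066. Fcgr1 had 2.6, 2.93, 1.71 and 2.05 CPM with ATOR-4066, against 0.73, 1.38, 1.09, 1.57 and 1.42 CPM with CD40 mAb. The groups did not overlap, and the difference was 0.95 ± 0.29 on the log2 scale, 1.93-fold (edgeR adjusted p = 0.042), on 64 to 108 counts a library with ATOR-4066 and 19 to 26 with CD40 mAb. The call was lost when any 1 of 8 of the 9 libraries compared was left out, and it held without ATOR-4066 animal 4. Without CD40 mAb animal 1 the other 5 members passed in its place, with Fcgr4 at -0.93, Fcgr3 at -0.84, Fcer1g at -0.60, Fcgr2b at 0.53 and Fcgrt at 0.78. With all libraries these 5 differed in the same directions without passing (edgeR adjusted p = 0.0821 to 0.173).

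**Figure D3:**
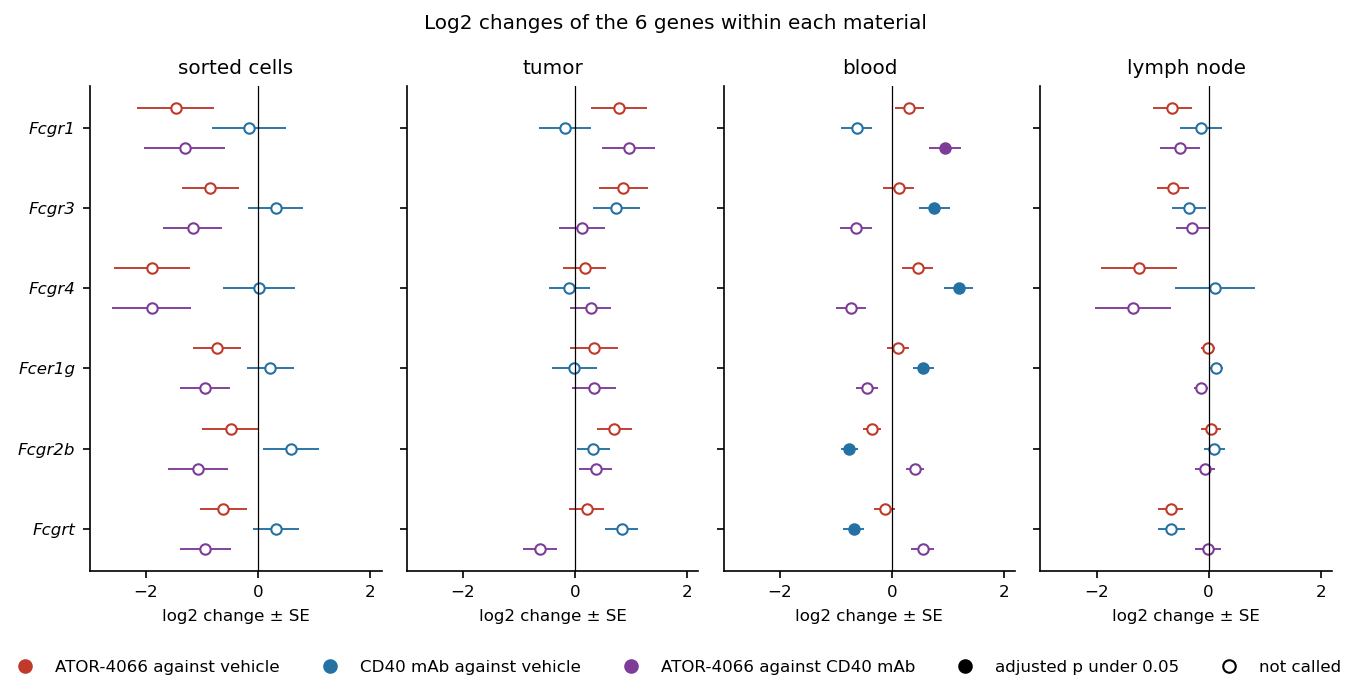
Log2 change with its SE of the 6 genes for each antibody against vehicle and for ATOR-4066 against CD40 mAb, 1 panel a material. Filled points passed at an adjusted p under 0.05, which were 5 genes for CD40 mAb against vehicle in blood and Fcgr1 for ATOR-4066 against CD40 mAb in blood.

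In sorted tumor leukocytes all 6 genes were lower on average with ATOR-4066 than with vehicle, most of all Fcgr4 and Fcgr1, but 0 of the 6 passed edgeR's test, where 11.9% of 16667 genes passed. At an unadjusted p under 0.05, 29% of all genes and 1 of the 6 members passed. DESeq2 called 3532 of all genes and 1 member, which was Fcgr4 (-1.90, adjusted p = 0.045). Fcgr4 had 79.3, 16.1 and 173 CPM in ATOR-4066 sorted cells, against 287, 231, 452 and 359 CPM in vehicle sorted cells. The groups did not overlap. The mean was 89.3 ± 78.7 (SD, n = 3) against 333 ± 95.4 (SD, n = 4), a change of -1.90 ± 0.68 or 3.72-fold (edgeR adjusted p = 0.0976). Fcgr1 had 218, 37.7 and 576 CPM with ATOR-4066, against 859, 645, 908 and 671 CPM with vehicle, again with no overlap (-1.47 ± 0.69, edgeR adjusted p = 0.191). Fcgr2b had 432, 86.3 and 683 CPM, against 630, 502, 521 and 593 CPM with vehicle, and its ATOR-4066 libraries lay on both sides of the vehicle range (-0.49 ± 0.51, edgeR adjusted p = 0.579). Fcgr3, Fcer1g and Fcgrt changed by -0.85 ± 0.50, -0.73 ± 0.43 and -0.62 ± 0.42. The members' median change was -0.79, beside -0.02 over all genes.

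The 3 ATOR-4066 libraries of sorted cells were unlike each other. Animal 9 had the lowest value of every member, and animal 10 the highest of every member except Fcgrt. The summed macrophage markers were 3644, 715 and 4014 CPM in ATOR-4066 animals 6, 9 and 10, against 7597 to 9843 CPM with vehicle, and 4 of the 10 markers fell. The summed T cell markers were 2462, 4148 and 1772 CPM, against 645 to 962 CPM with vehicle, and all 8 rose. The B cell sum was 426 CPM in animal 9 and 22.1 and 18.7 CPM in animals 6 and 10, against 15.7 to 21.1 CPM with vehicle. The erythroid sum of animal 6 was 5869 CPM, against 33.6 to 358 CPM in all other libraries of sorted cells. The part of this makeup in the lower receptor levels was not tested. Without animal 10 Fcgr4 (-2.81), Fcgr1 (-2.60) and Fcer1g (-1.35) passed against vehicle. Without any other single library 0 members passed against vehicle.

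**Figure D4:**
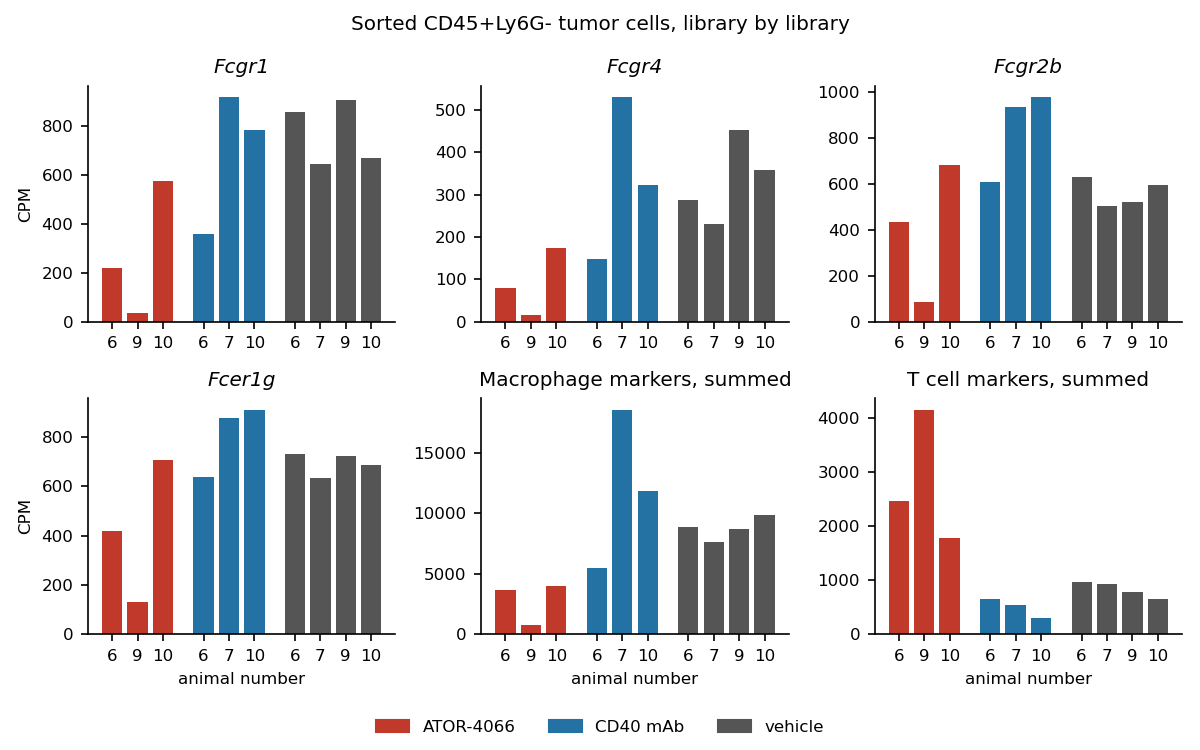
CPM in each library of sorted cells of Fcgr1, Fcgr4, Fcgr2b and Fcer1g and of the summed macrophage and T cell markers, with 3 ATOR-4066 libraries, 3 CD40 mAb libraries and 4 vehicle libraries from left to right. ATOR-4066 animal 9 has the lowest bar of the 4 receptor genes and of the macrophage markers (715 CPM) and the tallest bar of the T cell markers (4148 CPM).

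CD40 mAb changed no member in sorted cells by edgeR's test, at an unadjusted p under 0.05 or by DESeq2. There 1.09% of all genes passed edgeR's test, and DESeq2 called 1527 genes. Fcgr2b had 607, 934 and 976 CPM with CD40 mAb, against 502 to 630 CPM with vehicle, and animals 7 and 10 stood above all vehicle libraries (0.58 ± 0.50, edgeR adjusted p = 0.59). Fcgr4 had 149, 530 and 323 CPM, which ran below and above the vehicle range (0.01 ± 0.64, edgeR adjusted p = 0.997). The macrophage sum in the same order was 5466, 18551 and 11799 CPM. Between the antibodies all 6 genes were lower with ATOR-4066 by 0.94 to 1.90 on the log2 scale, and 0 passed (edgeR adjusted p = 0.119 to 0.273), where 8.23% of all genes passed. At an unadjusted p under 0.05, 27.1% of all genes and 1 member passed, and DESeq2 called 0 members beside 3012 of all genes. Without ATOR-4066 animal 10 Fcgr4 (-2.83), Fcgr1 (-2.44), Fcgr3 (-1.83) and Fcer1g (-1.58) passed between the antibodies, and without animal 6 Fcgrt (-1.65) did.

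In whole tumors no member passed in any comparison of the treatments. With ATOR-4066 against vehicle all 6 changes were positive, with a median of 0.52 beside 0.02 over all genes, and 1.32% of 18454 genes passed edgeR's test. At an unadjusted p under 0.05, 24.7% of all genes and 1 member passed, and DESeq2 called 0 members beside 2443 of all genes. Fcgr3 had 221, 446, 130 and 156 CPM in ATOR-4066 tumors, against 155, 127, 117 and 128 CPM in vehicle tumors, with 3 of 4 above every vehicle tumor (0.86 ± 0.44, edgeR adjusted p = 0.247). Fcgr1 had 143, 182, 558 and 153 CPM, against 170, 141, 151 and 141 CPM with vehicle, so that tumor 4 alone set the mean apart (0.78 ± 0.50, edgeR adjusted p = 0.349). Fcgr2b had 209, 418, 240 and 223 CPM, against 212, 173, 130 and 155 CPM with vehicle (0.70 ± 0.31, edgeR adjusted p = 0.188). Different tumors were high for different receptors. Tumor 2 led for Fcgr3, Fcgr2b and Fcgrt, and tumor 4 for Fcgr1, Fcgr4 and Fcer1g. Tumor 4 also had a monocyte sum of 1999 CPM, against 492 to 550 CPM in its 3 companions and 641 to 827 CPM in vehicle tumors, and tumor 2 a neutrophil sum of 519 CPM, against 132 to 208 CPM in its 3 companions and 303 to 406 CPM in vehicle tumors. The macrophage sum overlapped (3657 to 6304 CPM with ATOR-4066, 4965 to 7198 with vehicle), and 0 of 10 macrophage markers passed edgeR's test.

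With CD40 mAb against vehicle in tumors 0% of all genes passed, so that no gene of any kind was called there by edgeR, with 2205 genes at an unadjusted p under 0.05 and 30 called by DESeq2. At an unadjusted p under 0.05, 11.9% of all genes and 1 member passed, and DESeq2 called 0 members. That gene was Fcgrt, with 141, 58, 78.1, 71.9 and 176 CPM in CD40 mAb tumors, against 67.4, 55.8, 51.1 and 62.4 CPM in vehicle tumors (0.83 ± 0.30, edgeR adjusted p = 0.412). Of the CD40 mAb tumors 4 of 5 lay above every vehicle tumor. Tumor 5 was the highest of its group for all 6 genes, with 463 CPM of Fcgr3 against 120 to 210 in the others, and it also had the highest macrophage sum (17604 CPM, against 3072 to 6537) and T cell sum (1113 CPM, against 35.9 to 134). ATOR-4066 against CD40 mAb gave 0 members (edgeR adjusted p = 0.505 to 0.951), 0 at an unadjusted p under 0.05 and 0 by DESeq2. There 0.0325% of all genes passed edgeR's test, and DESeq2 called 324 genes.

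In lymph nodes the members were again not called by edgeR. ATOR-4066 against vehicle passed 0% of 18671 genes (2954 at an unadjusted p under 0.05, and 503 by DESeq2), CD40 mAb against vehicle passed 0.0643% of them, and the comparison of the antibodies 0.0161%. At an unadjusted p under 0.05 the members numbered 1, 1 and 0 in that order, beside 15.8%, 23.6% and 9.32% of all genes. DESeq2 called 0, 1 and 0 members, beside 503, 1833 and 152 of all genes. The member in both vehicle comparisons was Fcgrt, which is expressed in macrophages and endothelium. Fcgrt had 42.3, 22.9, 25.9, 40.7 and 43.2 CPM in ATOR-4066 nodes and 44.6, 25.1, 40.9 and 30.5 CPM in CD40 mAb nodes, against 71.1, 56.2, 50.8 and 46 CPM in vehicle nodes. Neither drug group overlapped with vehicle, and the comparisons share the vehicle nodes. The changes were -0.68 ± 0.23 with ATOR-4066 (edgeR adjusted p = 0.231) and -0.67 ± 0.24 with CD40 mAb (edgeR adjusted p = 0.137). DESeq2 called the second (-0.66, adjusted p = 0.0413). The macrophage sum was 1531 to 2635 CPM with ATOR-4066 and 1271 to 2411 CPM with CD40 mAb, against 2494 to 3245 CPM with vehicle. The endothelial sum overlapped, at 236 to 353 CPM with ATOR-4066 and 231 to 342 with CD40 mAb, against 286 to 345 with vehicle. The epithelial sum was 18.6 to 211 CPM with ATOR-4066 and 27.7 to 136 with CD40 mAb, against 129 to 368 with vehicle. The part of these markers in the lower Fcgrt was not tested.

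Single nodes stood apart for the activating receptors. Fcgr4 had 1.59, 6.01, 1.6, 1.14 and 1.84 CPM with ATOR-4066 and 6.28, 8.01, 6.83 and 3.67 CPM with CD40 mAb, against 16, 2.66, 2.87 and 1.56 CPM with vehicle. Vehicle node 1 and ATOR-4066 node 2 stood apart from their groups, and the 4 CD40 mAb nodes all exceeded vehicle nodes 2, 4 and 5. Fcgr1 and Fcgr3 were also highest in vehicle node 1 among all nodes, at 24.9 and 57.3 CPM. This node had an erythroid sum of 838 CPM, against 74.5 to 365 in the other vehicle nodes, and a macrophage sum of 3245 CPM, the highest of all nodes. Fcgr2b overlapped in all groups (53 to 108 CPM with ATOR-4066, 71.9 to 88.3 with CD40 mAb, 61.1 to 83.4 with vehicle), as did Fcer1g.

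The ATOR-4066 effect on 3 receptors differed between sorted leukocytes and whole tumors. The difference, sorted cells minus tumor, was -2.70 ± 0.74 for Fcgr1 (limma adjusted p = 0.0147), -2.53 ± 0.72 for Fcgr4 (limma adjusted p = 0.0181) and -1.57 ± 0.52 for Fcgr2b (limma adjusted p = 0.0441), where 10.1% of all genes passed. Fcgr3 (-1.93 ± 0.67, limma adjusted p = 0.0567), Fcer1g (-1.29 ± 0.54, limma adjusted p = 0.128) and Fcgrt (-1.05 ± 0.51, limma adjusted p = 0.203) did not pass. The members' median was -1.75, beside -0.06 over all genes. The macrophage markers had 6 of 10 members lower in the same difference. All 3 calls were lost without sorted ATOR-4066 animal 9 (Fcgr1 -1.61, Fcgr4 -1.57, Fcgr2b -0.68), and 5 members passed without sorted ATOR-4066 animal 10. The call of Fcgr2b was also lost without sorted vehicle 6, 9 or 10, tumor vehicle 2, 4 or 5, or tumor ATOR-4066 2. With both left-out libraries put back 0 members passed.

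The CD40 mAb effect on Fcgrt differed between tumors and lymph nodes by 1.37 ± 0.36 on the log2 scale (limma adjusted p = 0.0198), positive in tumors and negative in nodes, and it was the 1 member called where 5.5% of all genes passed. This call was lost without tumor vehicle 4, tumor CD40 mAb 1 or lymph node CD40 mAb 3, and with both left-out libraries put back. In the other differences of drug effects 0 members passed limma's test. For ATOR-4066 these were tumor minus lymph node (8.47% of all genes passed, 2 members at an unadjusted p under 0.05, the larger Fcgr3 at 1.31 ± 0.52) and lymph node minus blood (0.883% of all genes, 0 members at an unadjusted p under 0.05). For CD40 mAb they were sorted cells minus tumor (0.402% of all genes, 0 members at an unadjusted p under 0.05) and lymph node minus blood (22.9% of all genes, 1 member at an unadjusted p under 0.05). That last member was Fcgr2b, at 0.97 ± 0.42 (limma adjusted p = 0.0843). Of all genes, 23.6% and 17.5% had an unadjusted p under 0.05 in the ATOR-4066 differences, in the order given. In the CD40 mAb differences 11.9% and 38.3% did. No other tool was run on these differences.

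The balance of activating to inhibitory receptor RNA was described by the summed level per kilobase of Fcgr1, Fcgr3 and Fcgr4 divided by that of Fcgr2b in each library, with no test. In blood it was 7.8, 8.31, 4.86 and 5.38 with ATOR-4066 and 4.58, 10.7, 13.2, 23 and 21 with CD40 mAb, against 4.13, 6.01, 3.6, 4.82 and 3.11 with vehicle. Animals 2 to 5 of the CD40 mAb group lay above every other blood library. In sorted cells it was 4.22, 4.43 and 5.4 with ATOR-4066 and 4.8, 7.29 and 5.93 with CD40 mAb, against 8.09, 8.3, 11.1 and 7.93 with vehicle. Every treated library of sorted cells lay below every vehicle library. In tumors the groups overlapped, with 5.76 to 10.5 for ATOR-4066, 4.95 to 8.38 for CD40 mAb and 6.89 to 8.78 for vehicle. Lymph nodes had the lowest median ratios of the 4 materials, with 0.945 to 1.73 for ATOR-4066, 1.64 to 2.25 for CD40 mAb and 1.69 to 3.85 for vehicle. The division of shared reads between Fcgr2b and Fcgr3 enters both sides of this ratio. If the merged exon length of Fcgr2b is too long for its expressed transcripts, the ratio is too high. The factor is the same only between libraries that use the same Fcgr2b transcripts, which was not tested.

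**Figure D5:**
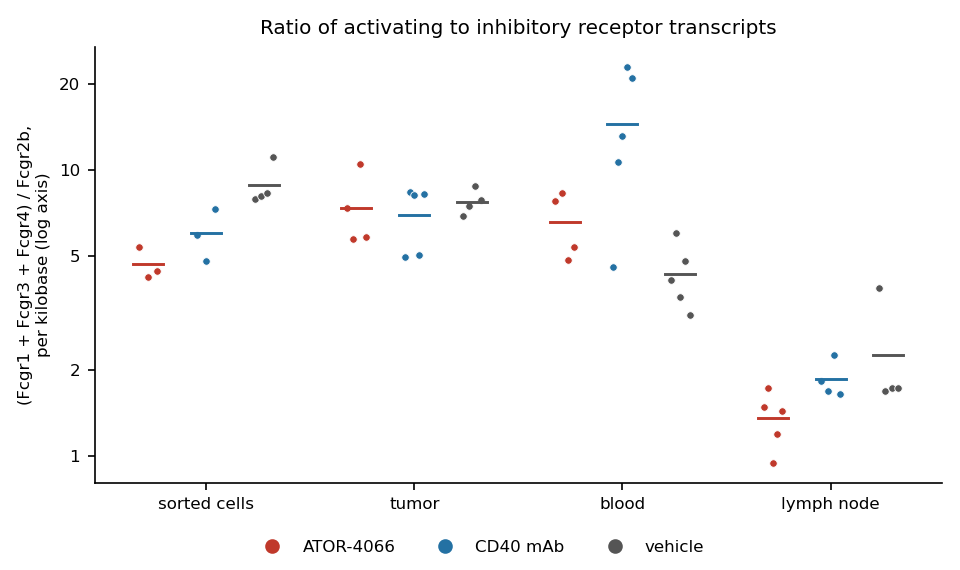
Summed level per kilobase of Fcgr1, Fcgr3 and Fcgr4 divided by that of Fcgr2b, 1 point a library and a bar at each group's mean, by material and treatment. In blood 4 of the 5 CD40 mAb libraries lie between 10.7 and 23, above all vehicle libraries (3.11 to 6.01), and in sorted cells all treated libraries lie below all vehicle libraries.

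The wider Fc receptor pathway was read through 6 lists holding 57 genes. In blood with CD40 mAb against vehicle 22.2% of all genes were higher and 12.4% lower, and the counts of the lists are to be read beside these shares. Genes of the receptors that use or parallel the Fcer1g chain rose in 5 of 11 tested and fell in none, with a median of 0.54. They included the C-type lectins Clec4e (Mincle; 7.79 ± 3.36 against 2.66 ± 0.53 CPM, SD, n = 5 each; 1.52 ± 0.29, edgeR adjusted p = 0.00103), Clec4n (2.53 ± 0.51, edgeR adjusted p = 0.00145) and Clec4d (1.43 ± 0.32, edgeR adjusted p = 0.00371). Activating signalling genes fell in 3 of 15 and rose in none. They were Lat2, an adaptor (-0.52 ± 0.12, edgeR adjusted p = 0.00406), Plcg2, a phospholipase (-0.51 ± 0.13, edgeR adjusted p = 0.00682), and Btk, a kinase of B cells and myeloid cells (-0.37 ± 0.12, edgeR adjusted p = 0.0238). Inhibitory signalling genes were split, 2 of 6 higher and 2 lower, with the adaptor Dok1 at 12.2 ± 6.51 against 3.36 ± 0.272 CPM (1.84 ± 0.31, edgeR adjusted p = 0.000465) and the phosphatase Ptpn6 at -0.41 ± 0.13 (edgeR adjusted p = 0.0251).

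NADPH oxidase genes, which make the oxidative burst that Fc receptors can trigger, rose in 2 of 5 and fell in 1 in CD40 mAb blood. Ncf4 rose by 0.96 ± 0.18 (edgeR adjusted p = 0.000685) and Ncf1 by 0.43 ± 0.16 (edgeR adjusted p = 0.0424), while Cybb fell by 0.64 ± 0.18 (edgeR adjusted p = 0.0104). Among the other Fc receptors and partners of the neonatal receptor 2 of 9 rose and 4 fell. B2m, the light chain that Fcgrt pairs with, had 899 ± 383 CPM with CD40 mAb against 260 ± 52.6 with vehicle (1.79 ± 0.33, edgeR adjusted p = 0.00057), opposite in sign to Fcgrt. The B cell receptors for IgM and IgE fell, Fcmr by 1.09 ± 0.22 (edgeR adjusted p = 0.00132) and Fcer2a by 1.42 ± 0.29 (edgeR adjusted p = 0.00167). Fcer2a is also one of the B cell markers. The 3 IgG heavy chain genes tested did not pass. With ATOR-4066 against CD40 mAb in blood, Clec4e (-1.42 ± 0.32, edgeR adjusted p = 0.00856) and B2m (-1.25 ± 0.35, edgeR adjusted p = 0.0231) were lower and Fcer2a (1.01 ± 0.30, edgeR adjusted p = 0.0372) higher. With ATOR-4066 against vehicle in blood none of the 6 lists had a called gene.

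In sorted cells with ATOR-4066 against vehicle 11.9% of all genes passed, which is the share to set beside each list. Activating signalling genes fell in 3 of 15 and rose in 1. Lat2 had 83 ± 34.5 CPM (SD, n = 3) against 203 ± 18.8 CPM (SD, n = 4; -1.29 ± 0.23, edgeR adjusted p = 0.0115), Plcg2 changed by -1.11 ± 0.27 (edgeR adjusted p = 0.0282), and Rac2, a GTPase of all blood cells, rose by 1.05 ± 0.23 (edgeR adjusted p = 0.0208). Inhibitory signalling genes fell in 2 of 6. Ptpn6 had 358 ± 47.6 CPM against 640 ± 45.1 CPM (-0.84 ± 0.16, edgeR adjusted p = 0.0132), and Inpp5d, the phosphatase that FcγRIIb recruits, 344 ± 105 CPM against 570 ± 17.6 CPM (-0.73 ± 0.20, edgeR adjusted p = 0.0448). NADPH oxidase genes fell in 2 of 5, Ncf1 (-1.37 ± 0.30, edgeR adjusted p = 0.0195) and Ncf4 (-0.85 ± 0.20, edgeR adjusted p = 0.0226). Clec4d rose (2.29 ± 0.57, edgeR adjusted p = 0.0318), as the 1 of 11 genes of its list. Of the other Fc receptors Fcmr was higher (4.21 ± 1.14, edgeR adjusted p = 0.0412), a gene of B cells, whose summed markers were high in animal 9, and the cytosolic antibody receptor Trim21 was lower (-0.92 ± 0.20, edgeR adjusted p = 0.0182). Between the antibodies Ncf1 (-1.81 ± 0.32, edgeR adjusted p = 0.0157) and Ptpn6 were also lower with ATOR-4066. With CD40 mAb in sorted cells the inhibitory adaptor Dok2 alone passed among the 57 genes (1.17 ± 0.23, edgeR adjusted p = 0.0483).

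In tumors with ATOR-4066 against vehicle, 3 of 10 genes around the Fcer1g chain rose, the lectins Clec4e (102 ± 41.6 against 4.72 ± 0.959 CPM, SD, n = 4 each; 4.43 ± 0.71, edgeR adjusted p = 0.0392) and Clec4d (4.44 ± 0.85, edgeR adjusted p = 0.0418) and the paired receptor Pira2 (1.83 ± 0.40, edgeR adjusted p = 0.049). Of the other Fc receptors Fcrls fell, with 11.2 ± 4.49 against 67.4 ± 22.4 CPM (-2.58 ± 0.43, edgeR adjusted p = 0.0394), and Fcrlb rose, with 8.23 ± 2.12 against 2.46 ± 0.707 CPM (1.74 ± 0.34, edgeR adjusted p = 0.042). The calls of these 5 genes come from a comparison in which 1.32% of all genes passed, and where no gene passed with the left-out library put back, without any 1 of the 4 vehicle tumors, or without ATOR-4066 tumor 1 or 2. Of the neutrophil markers 3 of 7 rose in the same comparison, but their summed level was 182, 519, 208 and 132 CPM in ATOR-4066 tumors, against 373, 303, 406 and 386 CPM in vehicle tumors, lower in 3 of 4. The signalling, oxidase and IgG lists had no called gene there. No gene of the 6 lists passed in tumors for CD40 mAb against vehicle or between the antibodies, or in lymph nodes in any comparison. The lowest adjusted p among those was that of Fcrls in nodes with CD40 mAb against vehicle (-3.09 ± 0.57, edgeR adjusted p = 0.0512).

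Between materials in vehicle animals more genes of the pathway lists were called, as were more of all genes. The shares of all genes were 57.8%, 61.6% and 63.1% in the order below. Of all 21410 genes 5141, 6912 and 6281 were higher and 7239, 6281 and 7228 lower, in that order. In sorted cells against tumor all 15 activating signalling genes, all 6 inhibitory ones and all 5 oxidase genes were higher, with medians of 2.38, 2.01 and 2.43. In tumor against lymph node most called genes of the same lists were lower, with 2 of 15 higher and 8 lower, 0 of 6 higher and 3 lower, and 0 of 5 higher and 4 lower, and all 4 IgG heavy chain genes were lower with a median of -8.95. In blood against lymph node 13 of 15 activating signalling genes and 11 of 12 genes around the Fcer1g chain were higher, and all 4 IgG heavy chain genes were lower. The order of blood and node depends on the scaling here too, and these lists were not compared on library totals.

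The genes whose log2 CPM followed each member most closely were found over the 13 tumor libraries and over the 10 libraries of sorted cells, which span all 3 treatments and share library makeup, so that the coefficients are descriptions with no test. Over tumors Fcgr1 was followed most closely by Ms4a6c (Pearson r = 0.981), Trafd1 (0.977) and Trex1 (0.971), and Fcer1g by Zeb2os (0.983), Hcls1 (0.969) and Lrrc25 (0.968). Fcgr4 was followed by Il21r (0.971), Cyfip2 (0.968) and Gpr171 (0.962), and Fcgr3 by Cd302 (0.970), Tns4 (0.956) and Matk (0.955). Fcgr2b was followed by Tnfsf14 (0.962), Fam98c (0.955) and Ptger2 (0.955), and Fcgrt by Endog (0.963), Selenop (0.951) and Gas6 (0.950). Ms4a6c is a myeloid membrane protein, Trex1 a DNA nuclease, and Gas6 a ligand of the receptor encoded by Mertk.

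Over sorted cells Ms4a6c again led for Fcgr1 (0.995), ahead of Cfb (0.994), a complement factor, and Plekho1 (0.993). Fcgr3 and Fcer1g were among each other's 3 closest genes (0.996). Fcgr3 also had Lrrc25 (0.997) and Cmklr1 (0.995), and Fcer1g also had Tmem106a (0.998) and Lst1 (0.997). Fcgr2b was followed by Aph1c (0.992), Sh3pxd2b (0.992) and the lysosomal protease Ctsz (0.991), Fcgr4 by Tmem219 (0.992), the interferon-induced gene Ifi44 (0.989) and Crk (0.989), and Fcgrt by Chml (0.954), Cfap126 (0.951) and Ctnnbip1 (0.947). Likeness was searched among 12202 genes in tumors and 11037 in sorted cells.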

How the data were processed

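Polyadenylated RNA from 4 materials of tumor-bearing mice was sequenced with a stranded mRNA kit, per the labels' protocols. STAR and the mouse build GRCm38 are named in the submitters' processing notes, and the table's name gives salmon. Neither the gene annotation nor the quantification settings are stated in the sources used here. The authors deposited 1 table of estimated counts per gene for 52 libraries. Of its cells 11% held a fraction and were rounded to whole numbers. All columns matched a labelled sample and no 2 columns were identical.

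For each material 1 edgeR 4.0.16 fit held all 3 treatments (TMM scaling, filterByExpr with a minimum count of 10 and a minimum total of 15, robust quasi-likelihood F test) in R 4.3.3. Comparisons between materials and differences of drug effects came from voomLmFit with limma 3.58.1 over 50 libraries, with the animal as a random block and sample weights by material. P-values were adjusted by Benjamini-Hochberg over all genes tested, and a gene was called at an adjusted p under 0.05. CPM used TMM-scaled library sizes, within a material unless stated otherwise. Levels per kilobase used the merged exon length of GENCODE vM21. Lymph node vehicle 3 and tumor ATOR-4066 3 were left out of every fit. P-values measure the spread between animals of a group.

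The members, the 6 pathway lists and the 13 marker lists (85 of 86 marker symbols found) were chosen with earlier results of these data known. From the pathway lists the text names, for each list and comparison, at most 3 called genes of smallest p, or, where none was called, at most 2. For likeness it names the 3 genes of highest Pearson r per member, among those averaging a log2 CPM of 1 or more (pseudocount 0.5). The tests were tested on simulated data. The alternatives were DESeq2 1.42.0, its size factors in place of TMM, no filter, only the groups compared, a replicate block, haemoglobin genes removed, no sample weights, the left-out libraries put back and each library left out in turn. One gene of the marker lists is not reported here by name.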

Additional observations from a re-analysis of the deposited data

Results flagged for a closer look

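Of 60 groups of 4 or 5 libraries (6 genes in 10 groups), 10 held a library whose gap to the nearest other was large for the group's range by Dixon's criterion, and chance alone flags about 1 in 20 groups. Vehicle node 1 accounts for 4 of them: it had 24.9 CPM of Fcgr1 (8.58 to 9.22 in the other vehicle nodes), 57.3 CPM of Fcgr3 (23.7 to 29.4), 16 CPM of Fcgr4 (1.56 to 2.87) and 84.5 CPM of Fcer1g (54 to 57.8). ATOR-4066 node 2 was high for Fcgr3 at 39 CPM (17.4 to 18.6 in the others) and for Fcgr4 at 6.01 CPM (1.14 to 1.84). In tumors ATOR-4066 4 had 558 CPM of Fcgr1 (143 to 182), ATOR-4066 2 had 418 CPM of Fcgr2b (209 to 240) and CD40 mAb 5 had 463 CPM of Fcgr3 (120 to 210). In blood vehicle 2 was low for Fcgr2b, at 8.96 CPM (9.79 to 10).

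Drug effects that differed between materials by test were those of ATOR-4066 between sorted cells and tumor on Fcgr1 (-2.70 on the log2 scale), Fcgr4 (-2.53) and Fcgr2b (-1.57), and that of CD40 mAb between tumor and lymph node on Fcgrt (1.37).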

How the results depend on the processing

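Over 331 alternatives the number of members called stayed within 1.5 times its value in 302, and of 1986 log2 changes 1835 kept direction and side of the threshold, 77 uncalled values changed sign, 26 gained a call, 48 lost one and no called change reversed. Other processing moved the members called as follows, and the cause was not tested. DESeq2 called 1 in sorted cells with ATOR-4066 against vehicle and 1 in lymph nodes with CD40 mAb against vehicle, in place of 0. Beside them it called 3532 and 1833 of all genes. Fitting only the groups compared gave 1 in blood with ATOR-4066 against vehicle (0 otherwise, Fcgr2b, edgeR adjusted p = 0.0235) and 3 with CD40 mAb against vehicle (5 otherwise). Fcgr3 (edgeR adjusted p = 0.0547) and Fcer1g (edgeR adjusted p = 0.0513) lost their calls there. With no filter on low counts Fcgr3 (edgeR adjusted p = 0.133) and Fcer1g (edgeR adjusted p = 0.062) also lost theirs, and Fcgr1 gained one (-0.72, edgeR adjusted p = 0.0496). Same-numbered libraries of different treatments came from different animals, so the numbers do not pair them. Their deviations correlated above 0.1 in 2 of 12 pairs in tumors, 1 of 8 in sorted cells, 5 of 11 in lymph nodes and 3 of 13 in blood. Among differently numbered pairs this held for 20 of 44, 7 of 25, 14 of 45 and 22 of 52, in that order. With that replicate block 3 members were called in blood with CD40 mAb against vehicle and 0 with ATOR-4066 against CD40 mAb, in place of 5 and 1. Against vehicle, Fcgr3 (edgeR adjusted p = 0.105) and Fcer1g (edgeR adjusted p = 0.0502) were again those lost. With both left-out libraries put back the members called were 0 in place of 3 in the ATOR-4066 difference between sorted cells and tumor, and 0 in place of 1 in the CD40 mAb difference between tumor and lymph node. The higher Fcgr2b of vehicle tumor and vehicle blood against lymph node then also lost its call (0.77, limma adjusted p = 0.0837, and 0.42, limma adjusted p = 0.216). Leaving out single libraries gave 0 to 3 members in sorted cells with ATOR-4066 against vehicle and 0 to 4 against CD40 mAb. In blood it gave 3 to 5 with CD40 mAb against vehicle and 0 to 5 with ATOR-4066 against CD40 mAb. It gave 0 to 5 in the ATOR-4066 difference and 0 to 1 in the CD40 mAb difference named above. Removing haemoglobin genes left 5 and 1 calls in blood, but this cannot test the scaling, since TMM already trims the most extreme genes.

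The number of all genes called moved more, which bears on the adjusted p of every member. In tumors the 243 genes of ATOR-4066 against vehicle became 2443 with DESeq2, 57 with no filter, 0 with the replicate block, 3959 with only the groups compared and 0 with the left-out library put back. DESeq2 called 30 in place of 0 for CD40 mAb against vehicle and 324 in place of 6 between the antibodies, where the block, the groups compared and the library put back each gave 0. In sorted cells DESeq2 gave 3532, 1527 and 3012 in place of 1977 for ATOR-4066 and 182 for CD40 mAb, each against vehicle, and 1372 between the antibodies. The block gave 1090, 14 and 363 there, no filter gave 391 in place of 182, and the groups compared gave 732 in place of 182 and 3 in place of 1372. In lymph nodes DESeq2 gave 503, 1833 and 152 in place of 0, 12 and 3. For the 12, no filter gave 171, the block 1, the groups compared 808 and the library put back 0. For the 3, the block gave 1 and the groups compared and the library put back 0. In blood with ATOR-4066 against vehicle DESeq2 gave 451, the block 6 and the groups compared 1062 in place of 53, and between the antibodies the block gave 2 and the groups compared 832 in place of 1593. No filter gave 29588 in place of 13509 for blood against lymph node. For the ATOR-4066 differences no sample weights gave 4305 in place of 2158 (sorted cells minus tumor), the libraries put back 21 in place of 1814 (tumor minus lymph node), and no filter, no weights and the libraries put back 95, 16 and 39 in place of 189 (lymph node minus blood). For the CD40 mAb differences no weights gave 1152 and the libraries put back 19 in place of 86 (sorted cells minus tumor), no filter 784 and the libraries put back 0 in place of 1178 (tumor minus lymph node), and no weights 1318 and the libraries put back 3125 in place of 4898 (lymph node minus blood). Leaving out single libraries moved these counts to 0 to 158 (from 243) and 1 to 314 (from 6) in tumors, 627 to 2525 (from 1977), 2 to 272 (from 182) and 105 to 2422 (from 1372) in sorted cells, 0 to 17 (from 0), 0 to 18 (from 12) and 0 to 4 (from 3) in lymph nodes, and 0 to 106 (from 53) and 914 to 3026 (from 1593) in blood. In the ATOR-4066 differences they became 1002 to 3018 (from 2158), 928 to 2775 (from 1814) and 88 to 1239 (from 189), and in the CD40 mAb differences 21 to 239 (from 86), 540 to 2786 (from 1178) and 4246 to 7546 (from 4898). DESeq2's size factors in place of TMM shifted the members' median by at most 0.02 within materials and by -0.15 in the last of these differences. Both methods assume that most genes do not change, so this small shift does not test that assumption. Depth limits the blood values of Fcgr1 and Fcgrt, which fell to 19 and 9 counts in a library.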

Other observations

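The 2 libraries left out of the comparisons are given here as values, in CPM of each library's total (not TMM-scaled). Lymph node vehicle 3 had 209 of Fcgr1 (8.64 to 25 in the other vehicle nodes), 201 of Fcgr3 (23.8 to 57.7), 290 of Fcgr2b (61.6 to 83.9), 282 of Fcer1g (54.3 to 85) and 64.7 of Fcgrt (46.3 to 71.5). Tumor ATOR-4066 3 had 48.8 of Fcgr1 (147 to 514 in the remaining ATOR-4066 tumors), 140 of Fcgr3 (120 to 477), 185 of Fcgr2b (215 to 447), 169 of Fcer1g (232 to 452) and 64 of Fcgrt (50 to 96.9).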
